A study of Mus musculus with 12 samples.

Results

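Foxp3 and 8 genes of the regulatory T cell identity program, Ikzf1, Ikzf2, Ikzf3, Ikzf4, Nrp1, Lrrc32, Gpr83 and Capg, were read by their symbols from a count table of 26609 genes. All 9 were present and all 9 were among the 13692 genes tested. The table covered 12 RNA-seq libraries of regulatory T cells (Tregs) sorted from mesenteric lymph nodes, the nodes that drain the gut, of SAMP/YitFC mice, a strain that develops chronic ileitis without an added agent. The titles gave 4 groups of 3 libraries, which are SAMP/YitFC-ERb-KO female, SAMP/YitFC-ERb-KO male, SAMP/YitFC-WT female and SAMP/YitFC-WT male. The KO lacks estrogen receptor beta (gene Esr2) in the whole animal and not only in T cells, and none of the mice was treated. Ages, the number of mice behind a library, and the allele of Esr2 are not given in the labels.

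Tregs restrain other immune cells. Their lineage is set by the X-linked forkhead factor Foxp3, which acts in large complexes with other DNA-binding proteins. The Ikaros family of zinc finger proteins includes Ikaros (Ikzf1), Helios (Ikzf2), Aiolos (Ikzf3) and Eos (Ikzf4). Helios and Eos are the members most tied to Tregs, and Eos is a corepressor partner of Foxp3. Neuropilin-1 (Nrp1), the latent TGF-beta docking protein GARP (Lrrc32) and the orphan receptor Gpr83 are surface proteins of mouse Tregs, and Capg is an actin filament capping protein of the gelsolin family.

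Total counts lay between 10.2 and 16.7 M per library, and the 9 genes had between 1080 and 13546 counts in any library. The titles did not match the libraries' own transcripts. Esr2 was at 0.895 CPM (counts scaled to the library's total) or less in 2 KO and 4 WT libraries, against 8.05 CPM or more in the other 4 KO and the other 2 WT libraries. The sex-linked transcripts Xist, Ddx3y, Eif2s3y, Kdm5d and Uty went against the titled sex in 4 libraries, which are KO female 1, KO male 1, KO male 2 and WT female 2. On the first principal component of all tested genes, which held 21.6% of the variance, KO male 3, KO male 1 and KO female 2 stood apart from the other 9 libraries. KO, WT, male and female below are therefore the titles of libraries, and a direction between groups is a direction between titled groups. The libraries titled WT male carry the numbers 1, 2 and 2 and are called WT male 1, 2 and 3 here.

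The sorted population had the transcripts of its gate. Cd4 lay between 526 and 733 CPM in KO libraries and between 465 and 667 CPM in WT libraries, and the IL-2 receptor chain Il2ra, which encodes CD25, lay between 544 and 992 CPM in KO and between 521 and 1007 CPM in WT libraries. Il7r, which encodes CD127, was at 143 to 198 CPM in KO and 145 to 252 CPM in WT libraries, so this transcript was not absent from a CD127lo gate. Cd8a did not exceed 23.0 CPM and Cd8b1 did not exceed 27.5 CPM. Cd8a, Cd8b1 and Cd3e were higher in KO, with log2 fold changes of 0.83, 0.68 and 0.47. None of these passed (adjusted p = 0.189, 0.0835 and 0.0765 by edgeR's quasi-likelihood test). Of the 8 tested markers of the sorted T cells, 5 had a positive fold averaged over the sexes and 0 passed. Of 7 lists of other cells' markers, the B cell list passed a permutation test between KO and WT libraries after adjustment over the lists, and the other 6 did not. The lists were chosen with earlier results of these data known, so the test is not independent of those results. Its splits took no account of titled sex. The 12 B cell markers summed to 190 to 438 CPM in KO libraries and to 47.6 to 251 CPM in WT libraries, and 7 of the 12 passed edgeR's test as higher in KO, beside 0.606% of all genes. WT female 1, at 251 CPM, lay above KO female 1 at 198 CPM and KO male 2 at 190 CPM. All 12 folds were positive in either sex. In females 0 of 12 passed, with a median log2 fold change of 0.97, and in males 3 of 12, with 3.31. Over all genes 0% passed in females and 0.073% in males. The plasma cell sum was mostly Xbp1 (mean 386 CPM) and Irf4 (79.2 CPM), so it says little of that list's other genes. Of its 5 tested genes, 1 passed as higher in KO, beside 0.606% of all genes. That was 2010001M09Rik, at 3.10 to 20.4 CPM in KO and 0 to 2.54 CPM in WT libraries (log2 fold change 4.35, adjusted p = 0.0131 by edgeR's quasi-likelihood test). Pecam1, at 120 CPM, led the stromal sum, and Nkg7, at 88.4 CPM, the CD8 and NK sum. The 12 macrophage, monocyte and neutrophil markers summed to 140 to 400 CPM in KO and to 19.0 to 306 CPM in WT libraries. Of the 12, 3 passed as higher, beside 0.606% of all genes. They were the scarce S100a8, S100a9 and Ngp, with KO means of 1.91, 3.75 and 3.83 CPM. Lyz2 and Csf1r, the most abundant of the list, did not pass (adjusted p = 0.0976 and 0.0528 by edgeR's quasi-likelihood test). The part of these transcripts in the results below was not tested, and in bulk samples fewer cells of a type and less RNA per cell cannot be told apart.

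The windows just upstream of the gene starts were read for 5 of the 9 genes that RefSeq's promoter table of GRCm38.p6 matched (Foxp3, Ikzf1, Nrp1, Gpr83 and Capg, with 2 starts each for Foxp3 and Ikzf1). Ikzf2, Ikzf3, Ikzf4 and Lrrc32 were not matched. The 250 bases before a start were searched on both strands for letters bound by the factors at issue. These were TGGGAA for the Ikaros family, TGTGGT for RUNX, TTCNNNGAA for STAT, TGTTTA for forkhead proteins and AGGTCA, the half-site of estrogen receptors. Of 32851 promoter windows of the same length, 21.6% held the Ikaros letters, 14.0% the RUNX letters, 7.02% the STAT letters, 12.03% the forkhead letters and 14.0% the half-site. The windows shown are those of Foxp3, the lineage factor, and of Capg and Nrp1, which hold the estrogen half-site. Capitals mark the matches, and each reads 5′ to 3′ on the plus strand, which is the coding strand of all 3 genes.
Foxp3, first start, chrX:7579426-7579675 (GRCm38.p6, plus strand): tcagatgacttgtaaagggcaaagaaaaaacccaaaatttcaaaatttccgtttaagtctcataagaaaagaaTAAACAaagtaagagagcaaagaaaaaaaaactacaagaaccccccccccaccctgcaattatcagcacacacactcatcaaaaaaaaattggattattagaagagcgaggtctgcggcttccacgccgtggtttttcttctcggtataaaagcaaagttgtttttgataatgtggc
Foxp3, second start, chrX:7580233-7580482 (GRCm38.p6, plus strand): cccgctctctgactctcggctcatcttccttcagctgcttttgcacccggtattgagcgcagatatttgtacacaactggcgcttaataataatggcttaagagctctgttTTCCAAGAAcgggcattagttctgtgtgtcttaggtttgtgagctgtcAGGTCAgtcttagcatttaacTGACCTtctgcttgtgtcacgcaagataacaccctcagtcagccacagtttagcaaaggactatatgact
Capg, chr6:72549397-72549646 (GRCm38.p6, plus strand): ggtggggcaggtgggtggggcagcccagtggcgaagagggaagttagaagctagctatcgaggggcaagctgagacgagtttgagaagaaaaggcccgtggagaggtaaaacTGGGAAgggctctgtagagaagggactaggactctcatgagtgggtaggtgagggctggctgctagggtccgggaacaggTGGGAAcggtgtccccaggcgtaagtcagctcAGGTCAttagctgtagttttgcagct
Nrp1, chr8:128358823-128359072 (GRCm38.p6, plus strand): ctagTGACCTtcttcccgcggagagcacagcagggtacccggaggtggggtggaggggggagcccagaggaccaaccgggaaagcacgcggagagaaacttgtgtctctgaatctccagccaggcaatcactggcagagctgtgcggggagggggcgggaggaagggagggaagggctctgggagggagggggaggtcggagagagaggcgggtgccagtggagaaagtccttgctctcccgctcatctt
The first Foxp3 window held 1 forkhead match on the minus strand, beginning 177 bases before the start. The second held the STAT letters 139 bases before the start, which read the same on both strands, and the half-site at 91 bases on the plus and at 70 bases on the minus strand. The Capg window held the Ikaros letters at 138 and 58 bases and the half-site at 26 bases. The Nrp1 window held the half-site at 246 bases on the minus strand. The Gpr83 window held the Ikaros letters at 120 bases, and neither Ikzf1 window held any of the 5. A match describes the letters only.

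Foxp3 was the highest of the 9 genes per length and did not separate the titled groups. It had 895, 583 and 765 CPM in KO females and 617, 917 and 662 CPM in KO males, against 634, 764 and 926 CPM in WT females and 690, 736 and 866 CPM in WT males. Each group held both low and high libraries, and the ranges overlapped over nearly all their length. The mean was 740 ± 143 CPM in KO and 770 ± 109 CPM in WT libraries (SD, n = 6 each). The log2 fold change of KO over WT, averaged over the sexes, was -0.06 ± 0.14 (SE; 95% interval -0.34 to 0.22; adjusted p = 0.885 by edgeR's quasi-likelihood test). It was -0.05 in females and -0.06 in males. The exons of Foxp3 (X: 7573644 to 7595245, plus strand, GRCm38) overlap those of Ppp1r3f and Ccdc22 on the other strand, which had 280 to 652 and 386 to 729 counts, and reads of overlapping genes cannot be told apart without strand.

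**Figure D1:**
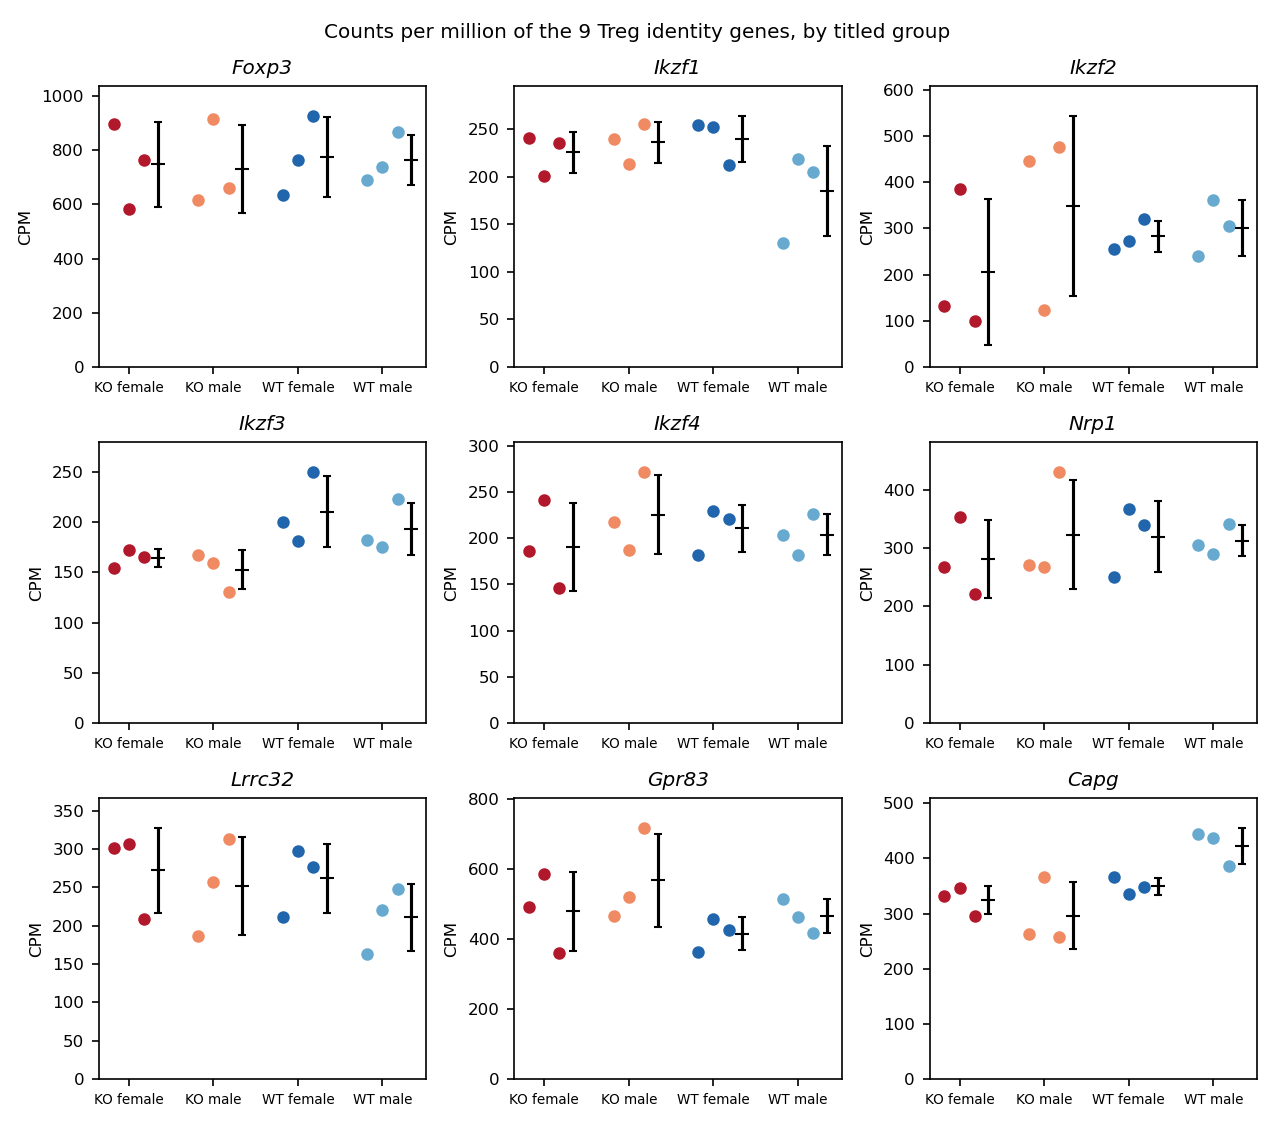
CPM (linear axis from 0) of each gene in every library, by titled group, with the group mean and SD as a black bar beside the points (n = 3 libraries each). Ikzf2 lies at 98.5 to 131 CPM in 3 KO libraries and at 240 CPM or above in the others, and the 6 KO points of Ikzf3 lie below the 6 WT points.

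None of the 9 genes passed in KO against WT averaged over the sexes. That is 0 of 9, beside 1.5% of all genes tested, and DESeq2 and limma also passed 0 of 9. The log2 fold changes ran from -0.35 for Ikzf3 to 0.25 for Gpr83, with 4 of 9 positive and a median of -0.06, against a median of 0.02 over all genes. At an unadjusted p under 0.05 there were 2 genes, Ikzf3 and Capg, beside 15.9% of all genes.

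**Figure D2:**
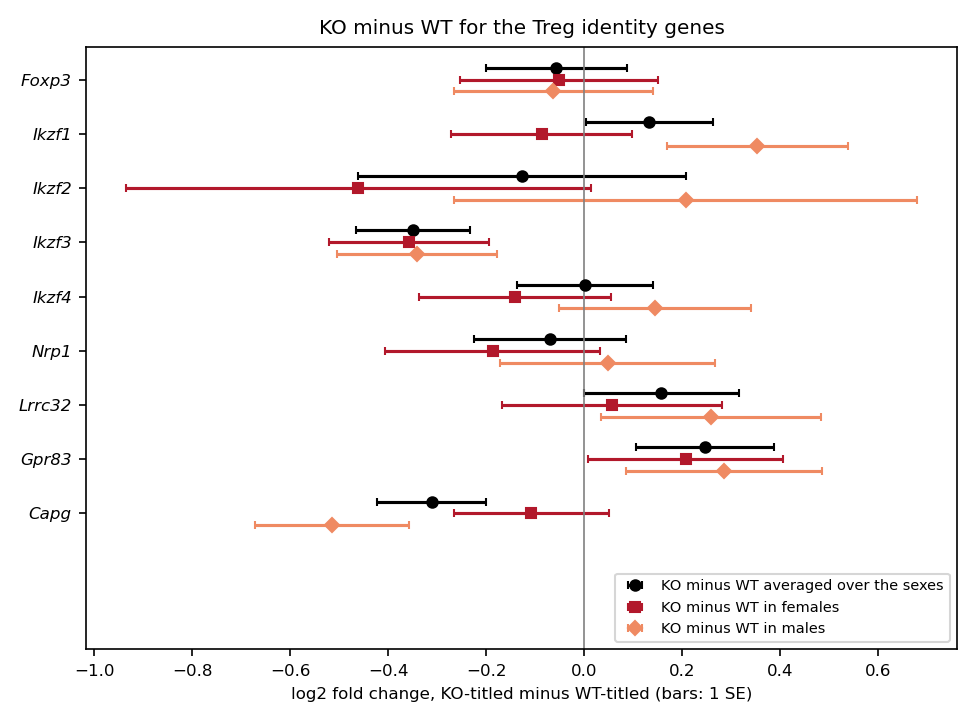
Log2 fold change of KO over WT for each gene with its SE, averaged over the sexes (black), in females (red) and in males (orange). Ikzf3 lies at -0.34 to -0.36 in all 3, Capg at -0.51 in males and -0.11 in females, and Ikzf2 has the widest bars.

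Among the Ikaros family genes, Ikzf3 was the one whose titled groups did not overlap. Aiolos, its product, is induced in effector lymphocytes and in helper cells that make IL-17. Ikzf3 had 155, 173 and 166 CPM in KO females and 168, 160 and 131 CPM in KO males, against 200, 182 and 250 CPM in WT females and 182, 176 and 223 CPM in WT males. Every KO library was below every WT library, which held for 1.43% of all genes in this direction. The means were 159 ± 14.9 CPM in KO and 202 ± 29.3 CPM in WT libraries (SD, n = 6 each). The log2 fold change was -0.35 ± 0.12 (SE; 95% interval -0.58 to -0.12; unadjusted p = 0.00866), and with adjustment over all genes it missed the threshold (adjusted p = 0.149 by edgeR's quasi-likelihood test). It was negative in all 20 alternatives, from -0.51 to -0.28, with adjusted p between 0.0924 and 0.374.

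The spread of Ikzf2, which encodes Helios, was in the KO libraries. Ikzf2 had 131, 386 and 98.5 CPM in KO females and 445, 124 and 476 CPM in KO males, against 255, 272 and 321 CPM in WT females and 240, 361 and 305 CPM in WT males. KO female 1, KO female 3 and KO male 2 lay below all WT libraries, and the other 3 KO libraries lay above all of them. The coefficient of variation was 63.9% over the 6 KO and 15.5% over the 6 WT libraries, and the highest library had 4.83 times the lowest. In the fit of all 12 libraries, the biological coefficient of variation of Ikzf2 was 40.0%, above that of 99.6% of the 500 genes nearest to it in level, while the other 8 members had 15.1% to 20.2%. With that spread the log2 fold change was -0.13 ± 0.33 (SE; 95% interval -0.78 to 0.53; adjusted p = 0.892).

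The 3 high KO libraries of Ikzf2 are KO female 2, KO male 1 and KO male 3, the same 3 that stood apart over all genes. Without them the log2 fold change of Ikzf2 averaged over the sexes was -1.29 (adjusted p = 0.00391 by edgeR's quasi-likelihood test) and in females -1.30 (adjusted p = 0.0260), with 1 KO male library left that was taken to vary like the other groups. The 3 KO libraries then left are the low ones, so the fold follows from which libraries were left out. The low libraries were not those of 1 titled sex, and they include 2 whose sex-linked transcripts went against the title.

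Ikzf1 and Ikzf4 were closer together across libraries. Ikzf1, the founding Ikaros gene of lymphocyte development, had 241, 201 and 236 CPM in KO females and 240, 213 and 256 CPM in KO males, against 255, 253 and 212 CPM in WT females and 131, 219 and 205 CPM in WT males. WT male 1 was the lowest library, and the other 11 lay between 201 and 256 CPM. The log2 fold change was 0.13 ± 0.13 averaged over the sexes (SE, adjusted p = 0.662), 0.35 in males (adjusted p = 0.407) and -0.09 in females. Without WT male 1 it was 0.03 averaged over the sexes and 0.15 in males. Ikzf4 had 186, 241 and 146 CPM in KO females and 217, 187 and 271 CPM in KO males, against 181, 230 and 220 CPM in WT females and 203, 182 and 226 CPM in WT males. The KO range held the whole WT range, and the log2 fold change was 0.002 ± 0.14 (SE, adjusted p = 0.996). Ikzf5, the fifth family gene, had 20.0 to 45.04 CPM in KO and 44.1 to 55.0 CPM in WT libraries, with a log2 fold change of -0.72 that missed the threshold (adjusted p = 0.0924).

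The surface genes overlapped between the titled groups. Nrp1, a coreceptor for semaphorins and VEGF that marks Tregs made in the thymus, had 268, 353 and 222 CPM in KO females and 271, 269 and 431 CPM in KO males, against 251, 368 and 341 CPM in WT females and 305, 291 and 342 CPM in WT males. KO male 3 was the highest and KO female 3 the lowest, and the log2 fold change was -0.07 ± 0.15 (SE, adjusted p = 0.870). Lrrc32 had 301, 307 and 208 CPM in KO females and 186, 257 and 313 CPM in KO males, against 211, 297 and 277 CPM in WT females and 163, 221 and 248 CPM in WT males. Its ranges overlapped over most of their length, with a log2 fold change of 0.16 ± 0.16 (SE, adjusted p = 0.672).

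Gpr83 had the highest positive fold change of the 9. It had 491, 585 and 361 CPM in KO females and 465, 518 and 716 CPM in KO males, against 362, 455 and 426 CPM in WT females and 514, 463 and 418 CPM in WT males. Of the 6 KO libraries 3 lay above all WT libraries, and KO female 3 lay below them. The log2 fold change was 0.25 ± 0.14 (SE; 95% interval -0.03 to 0.52; adjusted p = 0.425), positive in all 20 alternatives at 0.10 to 0.43 and passing in none.

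Capg was lower in every KO than in every WT male library, without passing the test. It had 332, 346 and 295 CPM in KO females and 264, 366 and 258 CPM in KO males, against 366, 336 and 347 CPM in WT females and 445, 438 and 385 CPM in WT males. The male groups did not overlap, and the female groups did. Over both sexes the means were 310 ± 44.7 CPM in KO and 386 ± 46.0 CPM in WT libraries (SD, n = 6 each). The log2 fold change was -0.31 ± 0.11 averaged over the sexes (SE, unadjusted p = 0.0138, adjusted p = 0.180) and -0.51 ± 0.16 in males (95% interval -0.82 to -0.21, adjusted p = 0.172). In females it was -0.11 ± 0.16 (SE, adjusted p = 0.904), and the difference between the sexes was 0.41 ± 0.22 (SE, adjusted p of the interaction = 0.900). Without KO male 2, the highest of the KO male libraries, Capg passed, with -0.40 averaged over the sexes (adjusted p = 0.0291) and -0.70 in males (adjusted p = 0.0191). Without the 3 libraries that stood apart it was weaker, at -0.18 averaged over the sexes (adjusted p = 0.295) and -0.20 in males (adjusted p = 0.597), where 1 KO male library is left.

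Within a titled sex, 0 of 9 genes passed in females, beside 0% of all genes, and 0 of 9 in males, beside 0.073% of all genes. Unadjusted p was under 0.05 for 1 gene in females (Ikzf3) and for 1 in males (Capg), beside 7.71% and 14.2% of all genes. Ikzf3 was lower in every KO than in every WT library within both sexes, and Capg within males, a pattern that 11.8% of all genes had in females and 7.45% in males. DESeq2 and limma passed 0 of the 9 in either sex.

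None of the 9 genes passed between the titled sexes. In KO, 0 of 9 passed, beside 0% of all genes, with log2 fold changes of female over male from -0.76 for Ikzf2 to 0.13 for Capg. In WT, 0 of 9 passed, beside 0% of all genes, with values from -0.27 for Capg to 0.38 for Ikzf1 (adjusted p = 0.718 by edgeR's quasi-likelihood test). WT female Capg was below WT male Capg in every library, which 8.13% of all genes showed. The interaction, which sets the KO fold of females against that of males, passed for 0 of 9, beside 0% of all genes, and ran from -0.67 for Ikzf2 to 0.41 for Capg. In these 3 comparisons 0 of the 9 had an unadjusted p under 0.05, against 5.27%, 6.52% and 4.81% of all genes, and DESeq2 and limma passed 0 of 9. The titles' mismatch with the sex-linked transcripts touches each of these values. With those 4 libraries left out, KO male keeps 1 library and KO female 2, and 0 of the 9 passed, which is no check on the titles.

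Levels of different genes were compared per kilobase of merged exons (GENCODE M21, GRCm38), over all 12 libraries. Foxp3 came first at 165 ± 26.7 CPM per kilobase, followed by Capg at 138 ± 23.2, Gpr83 at 94.5 ± 19.2 and Lrrc32 at 53.1 ± 10.9 CPM per kilobase (SD, n = 12). Then came Ikzf1 at 38.4 ± 6.01, Ikzf4 at 34.6 ± 5.60, Nrp1 at 31.6 ± 6.05, Ikzf2 at 24.5 ± 10.6 and Ikzf3 at 20.6 ± 3.62 CPM per kilobase. The ranges of neighbours overlapped except between Gpr83 and Lrrc32. Foxp3 was above Capg in 8 of 12 libraries, Ikzf1 above Ikzf4 in 7, and Ikzf2 above Ikzf3 in 6. Ikzf4 was above Nrp1 in 12 of 12 libraries although their ranges overlapped. The isoforms that these cells use were not analysed here, and a gene with unused exons would be understated on this scale.

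**Figure D3:**
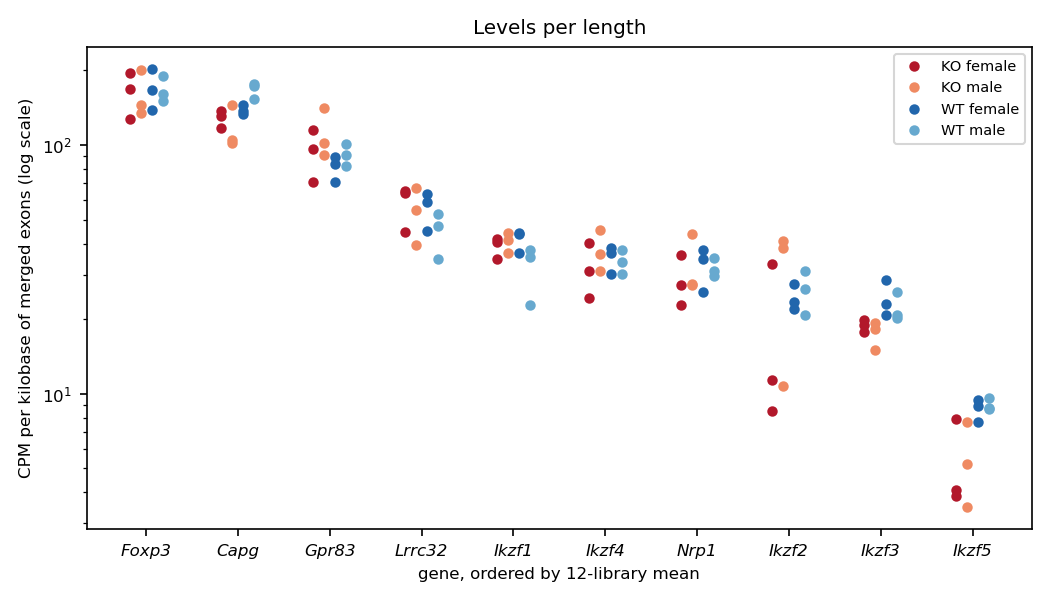
CPM per kilobase of merged exons (log axis) for the 9 genes and Ikzf5, ordered by the mean over 12 libraries, with each library as a point coloured by titled group. Foxp3 leads at 165 and Ikzf3 closes the 9 at 20.6 CPM per kilobase, and Ikzf2 spreads from 8.48 to 41.0.

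Across the 12 libraries Ikzf4 and Nrp1 followed each other most closely of the 36 pairs (Pearson r = 0.926, Spearman rho = 0.937 on log2 CPM). Without the 2 libraries farthest from the median of Ikzf4, r was 0.839. KO female 3 was lowest and KO male 3 highest for both genes. Gpr83 followed Ikzf4 at r = 0.689 and Nrp1 at r = 0.668, and without the 2 farthest libraries these were 0.254 and 0.219. Ikzf1 and Capg had r = -0.638 (rho = -0.636) and Ikzf3 and Gpr83 r = -0.617 (rho = -0.559). Foxp3 and Ikzf3 had r = 0.306, which was 0.067 without the 2 farthest libraries and 0.690 over the 9 libraries without low Ikzf2. Since the 3 low libraries of Ikzf2 form a cluster, its pairs were read over the other 9 libraries. There r was 0.618 with Gpr83, 0.542 with Ikzf4, 0.431 with Ikzf1, 0.356 with Lrrc32 and 0.336 with Nrp1. With Foxp3 it was -0.315, with Ikzf3 -0.578 and with Capg -0.716. These 9 libraries include KO female 2, KO male 1 and KO male 3, which were high in Ikzf2 and stood apart over all genes. The 9-library values are therefore not free of clustering either. Over all 12 libraries Ikzf2 had r = 0.776 with Ikzf4, 0.681 with Nrp1 and 0.406 with Gpr83. It had 0.123 with Ikzf3, 0.087 with Lrrc32, 0.019 with Ikzf1 and -0.117 with Capg. With the low libraries included, Foxp3 and Ikzf2 had r = -0.539 (rho = -0.538), the value farthest from 0 among the pairs of Foxp3. All pairs share the scaling of each library and the titled groups, and the r values describe these libraries only.

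**Figure D4:**
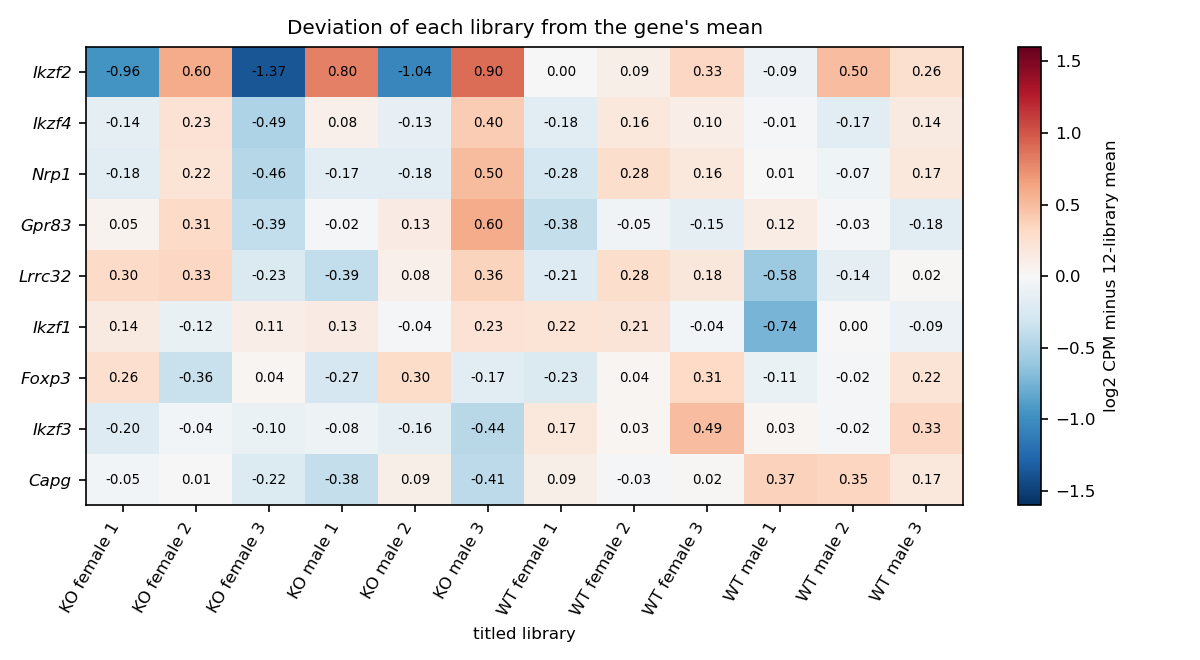
Log2 CPM of each gene in each library minus the gene's mean over 12 libraries, with KO libraries on the left and WT libraries on the right. Ikzf2 runs from -1.37 in KO female 3 to 0.90 in KO male 3, and Ikzf4 and Nrp1 share their lowest and highest libraries.

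Among the 9020 genes with a mean of at least 10 CPM, those whose log2 CPM followed each member most closely over the 12 libraries were named. For Foxp3 they were Lrrc8c (r = 0.920), a subunit of the volume-regulated anion channel, then Hps1, Csrnp1, Ppp1r16b, Slc25a25 and Zfp12 (r = 0.847), and none of the 6 passed in KO against WT. For Ikzf3 they were Creb1 and Prdm1, both at r = 0.963, and Suv420h1 at 0.948. Creb1 encodes the cyclic AMP response factor and Prdm1 encodes Blimp-1, a factor of effector Tregs, and both fell in KO against WT (values given with their lists). Ikzf3 itself separated the titled groups, so genes lower in KO tend to rank high with it. The fall of Creb1 and Prdm1 is thus not independent of that ranking. For Ikzf2 they were Rps6kb1, which encodes the S6 kinase, at r = 0.976, the nuclear receptor corepressor Ncor1 at 0.970 and Mtdh at 0.959. Within the 9 libraries without low Ikzf2 these were 0.907, 0.930 and 0.742.

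For Lrrc32 the closest were 4632411B12Rik and Il2rb, the shared beta chain of the IL-2 receptor, both at r = 0.925, and Wiz at 0.890. For Gpr83 they were the chemokine receptor Ccr8 at 0.906, Syngr2 at 0.904 and D18Ertd653e at 0.873. Ikzf4 and Nrp1 shared Gm9766 as their closest gene, at 0.927 and 0.857, followed by St8sia6 and Plcxd2 for Ikzf4 and by Nrip1 and Dst for Nrp1. Ikzf1 was followed by Psme4 at 0.903, Chd4 at 0.899 and Hira at 0.898. Leaving out the 2 farthest libraries took the r of Hira with Ikzf1 to 0.387. Capg was followed by Plin3 at 0.942, Vapa at 0.935 and Hars at 0.930.

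A list of 39 genes held factors known to bind or switch on Foxp3 together with other genes tied to it, such as Dnmt1, Uhrf1, Stub1 and Eno1. Satb1 is in this list and also in that of genes that Foxp3 keeps low. Of the 39 genes, 1 rose and 3 fell in KO against WT averaged over the sexes. Their median log2 fold change was -0.05, against 0.02 over all genes, and 10.3% of them passed. Over all genes 0.606% passed as higher and 0.898% as lower. The subunit Cbfb, the partner of Runx proteins at the Foxp3 locus, had a mean of 97.8 ± 14.4 CPM in KO, against 144 ± 6.06 CPM in WT libraries (SD, n = 6 each), a log2 fold change of -0.56 (adjusted p = 0.0312 by edgeR's quasi-likelihood test). Its ranges, 81.2 to 119 CPM in KO and 137 to 153 CPM in WT libraries, did not overlap, which held for 1.43% of all genes in this direction. Creb1, which binds a conserved noncoding element of Foxp3, fell to 64.6 ± 7.62 CPM in KO, against 104 ± 22.3 CPM in WT libraries, a log2 fold change of -0.68 (adjusted p = 0.0329).

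Hif1a, the hypoxia-inducible factor, fell by 0.60 on the log2 scale, with 388 ± 77.9 CPM in KO and 582 ± 99.0 CPM in WT libraries (adjusted p = 0.0312). Lef1, a TCF family factor of resting and naive T cells, rose to 265 ± 46.0 CPM in KO, against 175 ± 15.9 CPM in WT libraries (log2 fold change 0.59, adjusted p = 0.0314). These 4 genes each passed in 9 of 20 alternatives and in 4 of the 12 that left out 1 library, and kept their direction in all 20.

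Of 38 other genes of the Treg signature 2 fell and none rose in KO against WT, with 13 of 38 positive and a median log2 fold change of -0.12. Over all genes 0.898% passed as lower and 0.606% as higher, and the median was 0.02. Prdm1 had a mean of 56.7 ± 9.15 CPM in KO, against 97.6 ± 27.7 CPM in WT libraries (log2 fold change -0.78, adjusted p = 0.0424), with ranges of 39.7 to 66.0 CPM in KO and 65.2 to 140 CPM in WT libraries. Rgs1, a brake on chemokine receptor signalling, had a mean of 369 ± 62.1 CPM in KO, against 633 ± 190 CPM in WT libraries (log2 fold change -0.77, adjusted p = 0.0497). Prdm1 passed in 8 of 20 alternatives and Rgs1 in 4. Without the 3 libraries that stood apart, 7 of the 38 passed as lower, and 0 did once the 4 libraries with sex-linked transcripts against the title were left out. Over all genes 1126 passed without those 3 libraries and 14 without those 4, against 206 with all 12.

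Genes of conventional CD4 T cells that Foxp3 is known to keep low were measured with 18 members, of which 1 rose and none fell. Beside this, 0.606% of all genes passed as higher and 0.898% as lower. Igfbp4, a binding protein of insulin-like growth factors expressed in naive T cells, had a mean of 157 ± 67.4 CPM in KO, against 40.7 ± 29.2 CPM in WT libraries (log2 fold change 2.00, adjusted p = 0.0295). Its ranges were 80.7 to 272 CPM in KO and 12.8 to 92.2 CPM in WT libraries, and it passed in 10 of 20 alternatives. The list's median was 0.22 with 14 of 18 positive averaged over the sexes, -0.02 with 9 of 18 positive in females and 0.40 with 14 of 18 positive in males. Over all genes the median was 0.02 averaged over the sexes, 0.01 in females and 0.01 in males.

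A list of 20 genes held nucleosome remodelling and corepressor genes that work with Ikaros proteins, together with Ikzf5 and Crbn. None of the nucleosome remodelling and corepressor genes passed. Of the 20, none rose and 1 fell, beside 0.606% of all genes as higher and 0.898% as lower. That was Crbn, which encodes cereblon, the ubiquitin ligase receptor known in human cells for drug-induced degradation of Ikaros and Aiolos. Crbn had a mean of 169 ± 16.4 CPM in KO, against 221 ± 11.2 CPM in WT libraries (log2 fold change -0.39, adjusted p = 0.0481). The groups did not overlap, at 147 to 190 CPM in KO and 204 to 236 CPM in WT libraries. This held for 1.43% of all genes in this direction. Crbn passed in 4 of 20 alternatives. The list's median was -0.003, with 10 of 20 positive, against a median of 0.02 over all genes.

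Around GARP, 0 of 16 genes of latent TGF-beta storage, activation and signalling passed, by edgeR's quasi-likelihood test, against 2 by DESeq2. Beside the 0 of 16, 1.5% of all genes passed edgeR's test. Tgfb1, the form that GARP displays on Tregs, had a mean of 131 ± 25.05 CPM in KO, against 89.5 ± 20.3 CPM in WT libraries (log2 fold change 0.55, adjusted p = 0.133). Tgfb2 and Tgfb3 were far lower, with 1.01 CPM in KO and 0.184 CPM in WT libraries for Tgfb2 and 2.62 CPM in KO and 0.744 CPM in WT libraries for Tgfb3.

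Around neuropilin-1, 1 of 16 genes rose and 1 fell, beside 0.606% of all genes as higher and 0.898% as lower. Sema4a, a semaphorin ligand of neuropilin-1 on Tregs, had a mean of 74.0 ± 17.1 CPM in KO, against 33.8 ± 11.2 CPM in WT libraries (log2 fold change 1.14, adjusted p = 0.0197). Its ranges were 57.3 to 101 CPM in KO and 22.1 to 51.8 CPM in WT libraries. Sema4a is also made by B cells and dendritic cells, and the B cell sums given above moved in the same direction, whose part was not tested. Adam10, a protease that sheds surface proteins, had a mean of 152 ± 18.5 CPM in KO, against 257 ± 59.2 CPM in WT libraries (log2 fold change -0.75, adjusted p = 0.0222). Sema4a and Adam10 each passed in 15 of 20 alternatives.

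Of 11 genes of the gelsolin family and the capping protein measured beside Capg, none rose and 1 fell. That stands beside 0.606% of all genes as higher and 0.898% as lower. Scin, the actin-severing relative of Capg, had a mean of 4.03 ± 0.971 CPM in KO, against 16.1 ± 4.26 CPM in WT libraries, a log2 fold change of -1.99 averaged over the sexes (adjusted p = 0.00273) and -2.02 in males (adjusted p = 0.0234). The ranges were 3.10 to 5.82 CPM in KO and 11.5 to 24.1 CPM in WT libraries. Scin passed in 19 of 20 alternatives and missed the threshold once those 4 libraries were left out (adjusted p = 0.0509). The genes passing across these lists were chosen with earlier results of these data known, so their counts describe the lists and are not independent of those results.

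**Figure D5:**
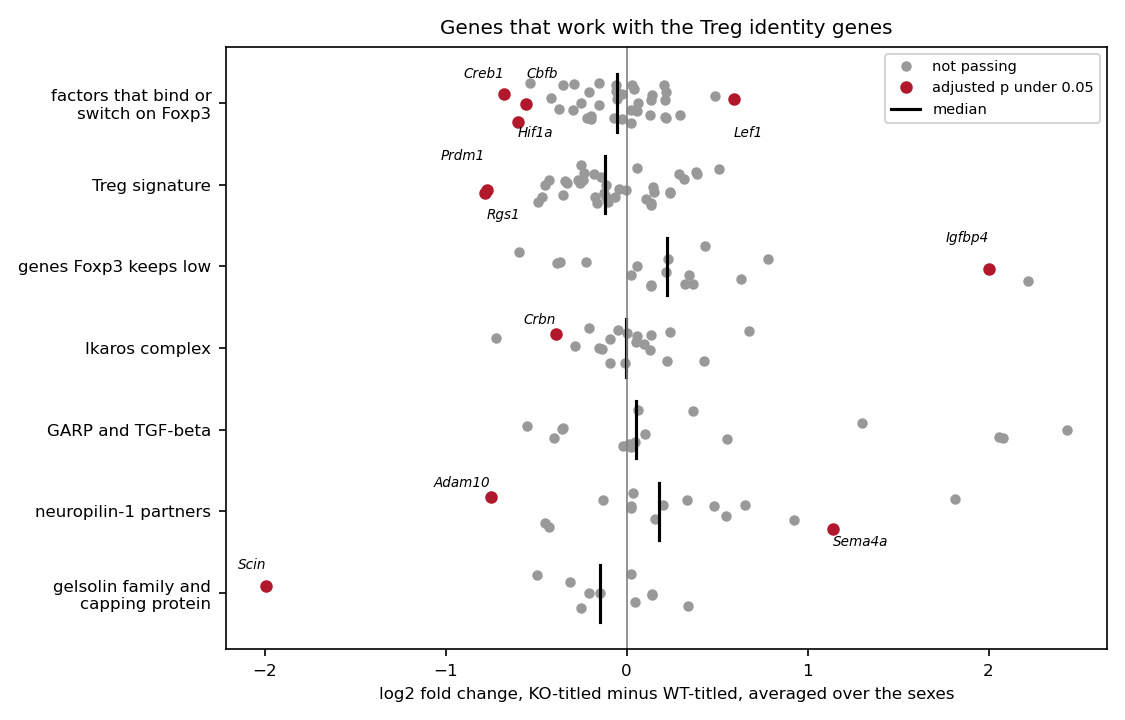
Log2 fold change of KO over WT, averaged over the sexes, for each tested gene of 7 lists, with genes passing at an adjusted p under 0.05 in red and named, and the list's median as a black line. Scin at -1.99 and Igfbp4 at 2.00 lie farthest from 0 among those that pass. The list labelled as factors that bind or switch on Foxp3 also holds other genes tied to it. The Ikaros list also holds Ikzf5 and Crbn.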

How the data were processed

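RNA of sorted Tregs was made into libraries with SMART-Seq v4 and Nextera XT, per the labels' protocols, a combination that does not mark strand. The authors deposited raw counts per gene symbol and log2 CPM. The submitters' processing notes name HISAT2 2.0.5, featureCounts 1.5.0-p2, Subread, edgeR and GRCm38, while the sources used here give neither the annotation release nor the strand setting. Log2 CPM recomputed on TMM-scaled library sizes matched the deposited log2 values to within 5e-14 (prior count 0.25).

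Groups came from the sample titles. One edgeR 4.0.16 quasi-likelihood fit of 4 group means (R 4.3.3, filterByExpr, TMM, robust) covered 12 libraries and 13692 genes, which held at least 99.8% of each library's counts. Tests were two-sided, with Benjamini-Hochberg adjustment over all genes and a threshold of 0.05. The code was checked on simulated data. CPM use TMM-scaled sizes. Summed log2(CPM + 1) of other cells' markers was set between KO and WT with an exact permutation test, two-sided, over 924 splits, adjusted over 7 lists, which gave p = 0.00649 for B cells (adjusted p = 0.0455), 0.0433 for myeloid cells (0.0758), 0.0173 for stroma (0.0606), 0.0260 for CD8 and NK cells (0.0606), 0.379 for plasma cells (0.435), 0.361 for dendritic cells (0.435) and 0.435 for plasmacytoid dendritic cells (0.435). The 2 most abundant markers of each list were Cd79b and Cd22 (B cells), Lyz2 and Csf1r (myeloid), Pecam1 and Itga2b (stroma), Nkg7 and Prf1 (CD8 and NK), Xbp1 and Irf4 (plasma), Zbtb46 and Xcr1 (dendritic), and Pacsin1 and Bst2 (plasmacytoid).

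Alternatives were DESeq2 1.42.0, its size factors in edgeR, no count filter, a block by title number, limma 3.58.1 on the deposited log2 values, the 2 libraries titled WT male 2 summed, and each library left out. Those without the 4 libraries against their titled sex and without the 3 apart were added after seeing the data. The genes and lists were chosen with earlier results of these data known. The text names the 9 genes, the 6 genes most like Foxp3 and the 3 most like each other gene, every list gene that passed, and a few more list genes chosen after their values were seen (Tgfb1, Tgfb2, Tgfb3). The labels do not say whether libraries come from separate mice, so a p-value covers the spread between these libraries, which may be technical.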

Additional observations from a re-analysis of the deposited data

How the results depend on the processing

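Of 540 values of the 9 genes' KO against WT folds under 20 alternatives, 499 kept direction and side of the threshold, 37 changed sign and 4 newly passed. The count of genes passing depended on the setting. Averaged over the sexes it was 206, against 644 with DESeq2, 627 with no count filter, 31 with the WT male libraries numbered 2 summed, 14 without the 4 libraries against their titled sex and 1126 without the 3 apart, and 12 to 543 with 1 library left out. In females it was 0, against 22 with DESeq2, 132 with no filter and 60 without the 3, and 0 to 2 with 1 library left out. In males it was 10, against 420 with DESeq2, 443 with no filter, 135 without the 4, 0 without the 3, 0 with the numbered libraries summed, and 0 to 734 with 1 left out (734 without KO male 2). For female against male in KO it was 0, against 63 with no filter and 5 without the 4, and 0 to 324 with 1 left out. In WT it was 0, against 30 with DESeq2, 191 with no filter and 5 without the 4, and 0 to 38 with 1 left out. For the interaction it was 0, against 3 with DESeq2 and 106 with no filter, and 0 to 4 with 1 left out. With the title number as a replicate block, 9 genes passed averaged over the sexes and 0 in males. None of 18 same-numbered pairs had a correlation of deviations over 0.1 (-0.266 to 0.092), so the numbers were not taken to pair samples. The number of the 9 genes passing was 0 to 1 with 1 library left out, averaged over the sexes and in males (Capg without KO male 2), and 1 without the 3 apart, averaged and in females (Ikzf2). Leaving out the 4 or the 3 libraries left 1 KO male library, taken to vary like the other groups. The cause of these changes was not tested.

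The values that changed sign follow. Without the 3 apart, Foxp3 was at 0.18 averaged over the sexes, 0.09 in females and 0.27 in males, Ikzf4 at -0.23 averaged and -0.11 in males, Nrp1 at -0.21 in males, Lrrc32 at -0.04 in females and Ikzf2 at -1.27 in males. Without the 4 against their titled sex, Ikzf2 and Nrp1 were both at 0.19 averaged. Ikzf4 averaged was -0.008 with no filter, -0.02 with limma and -0.004 with the numbered libraries summed, and Ikzf2 in males was -0.007 with limma. With 1 library left out, Foxp3 ran from -0.16 to 0.02 averaged, -0.21 to 0.10 in females and -0.26 to 0.05 in males, Ikzf2 from -0.55 to 0.07 averaged and -0.09 to 0.61 in males, Ikzf4 from -0.10 to 0.08 averaged, -0.35 to 0.02 in females and -0.01 to 0.26 in males, Lrrc32 from -0.08 to 0.21 in females and Nrp1 from -0.22 to 0.16 in males. All 9 genes had at least 1080 counts in each library, so counting depth limits them less than the spread between libraries.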
